A study of Mus musculus with 2 samples.

Results

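The cytosolic ribosomal protein genes encode the proteins of the ribosome that translates messenger RNA in the cytoplasm, and 49 of them were measured among 18194 genes in all. They were chosen by symbol from probe sets that the platform annotation names for 1 gene only: Rpl, Rps or Rplp with a number and at most a short suffix, or Rpsa, without pseudogene symbols. Where several probe sets named 1 gene, the one with the largest mean log2(intensity + 16) of both arrays stood for it. Total RNA came from cells of male C57BL/6 mice, either wild type or knocked out for miR-223, which granulocytes and their precursors make in large amounts. Haematopoietic progenitors from bone marrow were cultured to neutrophils for 6 days with 2 cytokines, the granulocyte factor G-CSF and the progenitor factor SCF. Both cultures received cycloheximide, an inhibitor of translation elongation, at 100 ug/ml during the final 8 min, so the 2 arrays share this agent and differ by genotype. Each genotype had 1 Affymetrix 3' array. No difference has a replicate check, no test was run, and precision is limited by the number of arrays. How many mice went into each culture is not stated in the labels.

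The knockout lacks the gene of miR-223 on the X chromosome. The sequence of its 3p arm is shown, with the seed (bases 2 to 8) in capitals, because the seed is the part by which a microRNA pairs with messenger RNAs. It lies at chrX:96242884-96242905 on the plus strand in RefSeq's GRCm38.p6.
mmu-miR-223-3p: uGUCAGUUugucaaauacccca
No probe set was used here for the microRNA itself, so the labels were not checked on the targeted gene.

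A ribosome is built from a small subunit, which reads the messenger RNA, and a large subunit, which joins amino acids. Each protein is present once per ribosome, except the stalk proteins, and surplus copies are degraded. Messenger RNAs of ribosomal proteins usually begin with a 5' terminal oligopyrimidine tract (TOP), a run of C and T in the gene through which mTOR signalling sets their translation. This control acts mainly on translation, which arrays do not measure, and can also affect the stability of these messenger RNAs.

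Ribosomal protein genes were close to equal on the wild-type and knockout arrays. The median difference, knockout minus wild type on the log2(intensity + 16) scale, was -0.03 over the 49 genes, and differences ran from -0.40 for Rps4l to 0.19 for Rpl27a. Paired intensities are given with the wild type first. It was 0.16 when the arrays were scaled to the poly-A spike-in controls and 0.11 when scaled to the hybridization controls. Leaving out probe sets with the suffixes _a_at, _s_at, _x_at or _f_at, called shared suffix classes here, left 26 genes. Their median was 0.0065. None of the 49 genes was 2-fold higher or lower, where 0.0605% and 0.0275% of all measured genes were. By 0.2 or more, no member was higher and 1, Rps4l, was lower, against 8.45% and 6.22% of all measured genes. By 0.5 or more no member differed, against 0.704% higher and 0.379% lower of all measured genes.

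Counted by sign alone, 18 members were higher on the knockout array and 31 lower, against 48.2% and 51.2% of all measured genes. Without probe sets of shared suffix classes, 14 of the 26 genes left were higher and 12 lower, so the lower genes were no longer the larger number. Several genes then stood on dimmer probe sets, such as Rps20 at 28.0 in the wild type in place of 13431. For Rpl35 it was 21.3 in place of 10581.5. Rps20, Rpl35, Rpl39l, Rpl3l and Rps16 then did not reach the expression level given below. Of these, Rps20 (0.067), Rpl39l (0.039), Rpl3l (0.097) and Rps16 (0.052) were higher and Rpl35 (-0.14) lower. The larger number of higher genes thus rested on genes below that level. The counts of the 49 members turned to 47 higher and 2 lower with poly-A scaling and to 44 and 5 with hybridization control scaling. The poly-A scaling moved the median of all expressed genes to 0.19 and the hybridization scaling to 0.14. Relative to all expressed genes, the members' median was -0.03 under either. A gene counted as expressed when its mean reached the median of all probe sets, an intensity of 33.9. Of the members 46 did, 15 higher and 31 lower, beside 49.7% and 50.1% of 11006 expressed genes. Among expressed genes 12.1% were higher and 8.27% lower by 0.2 or more, 1.13% and 0.591% by 0.5 or more, and 0.0999% and 0.0454% by 2-fold, where the expressed members numbered 0 and 1, 0 and 0, and 0 and 0. The SD of the differences was 0.10 over the 49 members and 0.18 over all expressed genes.

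**Figure D1:**
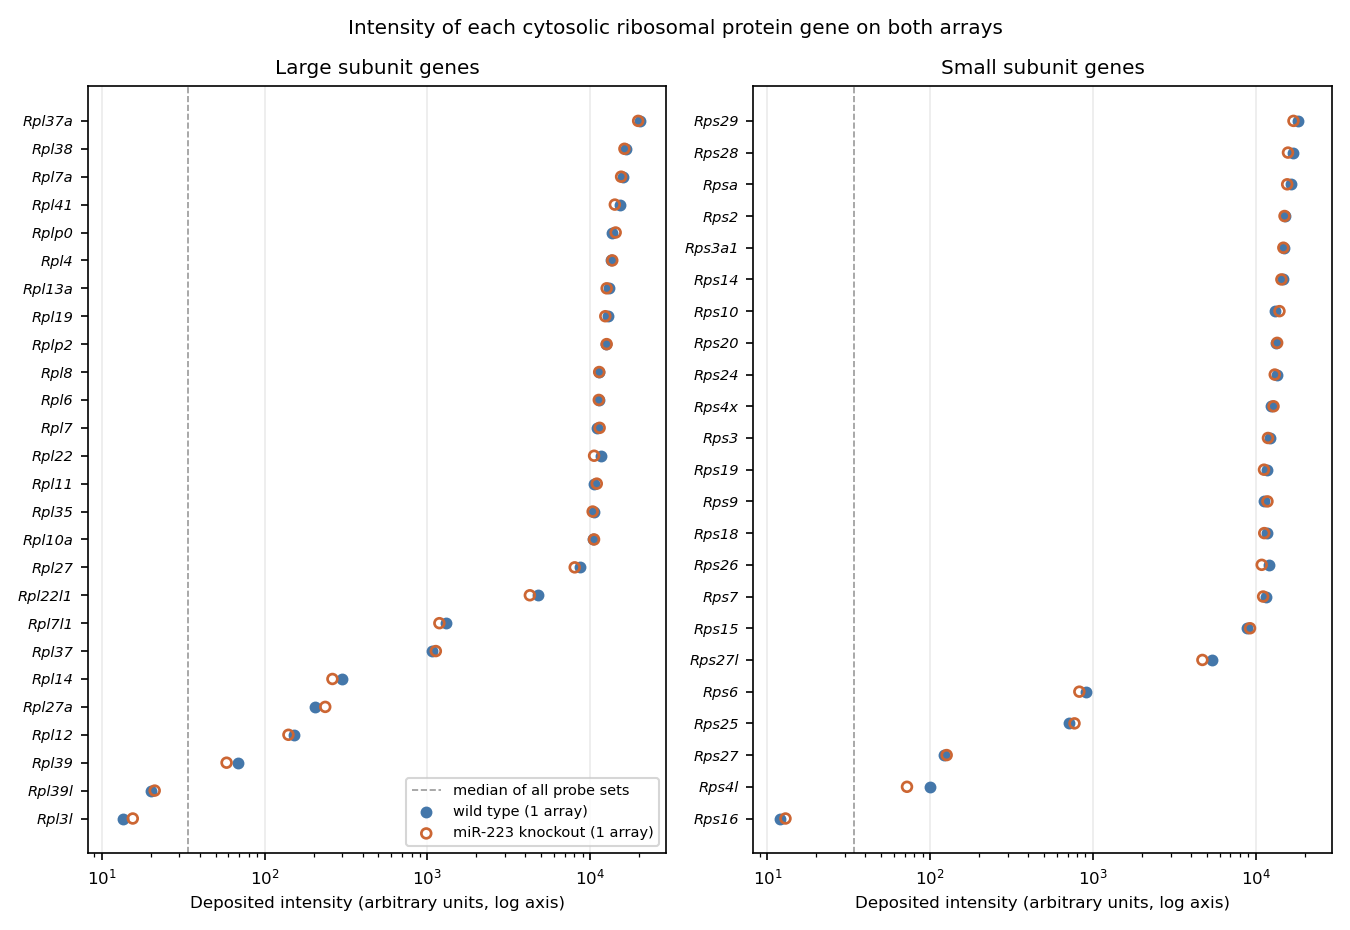
Deposited intensity (arbitrary units, log axis) of each of the 49 genes on the wild-type array (filled) and the knockout array (open), by subunit, with 1 array per genotype and so no error bars. The dashed line is the median of all probe sets, 33.9, and Rpl39l, Rpl3l and Rps16 lie below it on both arrays. Points of 1 gene nearly coincide, and intensities of different genes are not amounts to be compared.

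The large subunit had 26 members, 10 higher and 16 lower, with a median of -0.03. The small subunit had 23, 8 higher and 15 lower, also with a median of -0.03. These medians became 0.15 and 0.16 with poly-A scaling and 0.11 for each with hybridization control scaling. Of 79 proteins listed as canonical parts of the cytosolic ribosome, 43 were members. Another 27 were named only on probe sets that also carry other gene names, and 9 had no probe set within the rule. Of these only Fau is described here. The other 6 members are paralogs or related loci outside the canonical list.

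The members fell into a bright group and a dim group by the signal of their probe sets. At a mean log2 value of 13 or more stood 34 genes, with intensities from 8051 to 20301. Their differences lay between -0.14 and 0.10, with an SD of 0.064 and a median of -0.03. The 60 other genes of that brightness, the calcium-binding protein genes S100a8 and S100a9 among them, had a median of 0.057 and an SD of 0.098, 45 of them higher. Whether signals this bright still follow RNA in proportion was not tested. The 15 dimmer members had an SD of 0.16 and included the 5 lowest and the 2 highest. Among them were canonical genes with dim probe sets only. Examples were Rpl27a (204 in the wild type and 236 in the knockout), Rpl39 (68.2 and 58.4) and Rps16 (11.9 and 12.9). Whether such dim probe sets follow the messenger RNAs of these genes was not tested.

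**Figure D2:**
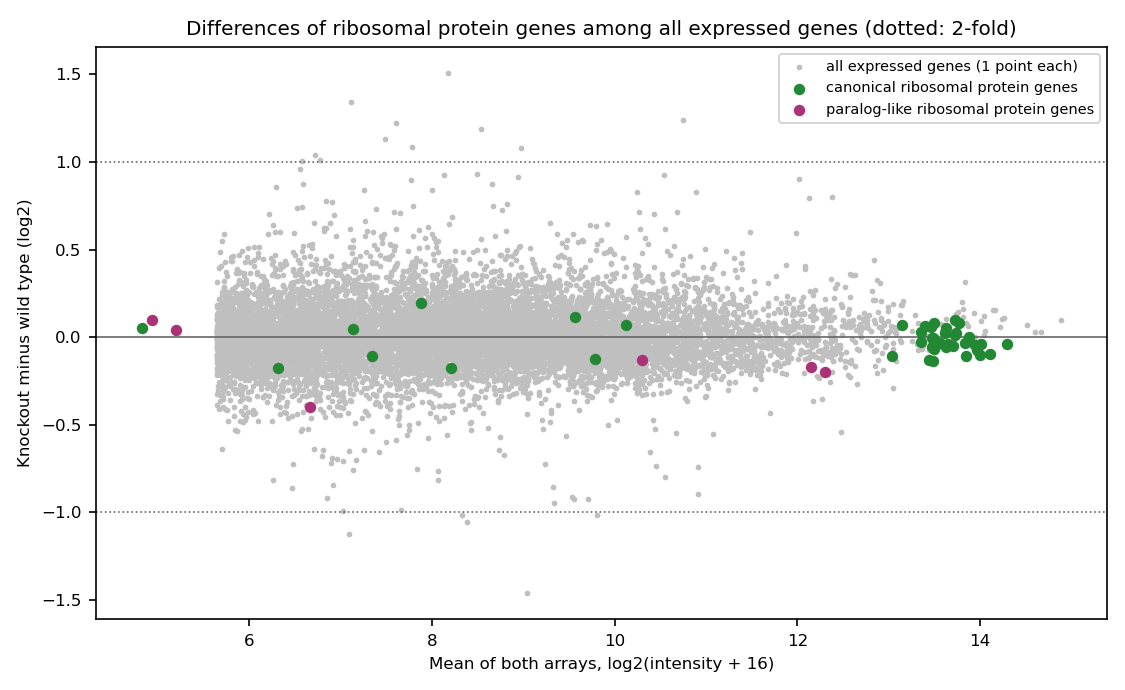
Difference between the arrays (knockout minus wild type, log2) against the mean of both arrays on the log2(intensity + 16) scale, with 1 point per gene for all 11006 expressed genes (grey), canonical ribosomal protein genes (green) and paralog-like ones (purple). The 34 bright members lie between -0.14 and 0.10, and no member reaches the dotted lines of a 2-fold difference. Signs hold for the scale as deposited and were mostly positive with scaling to the spike-in controls.

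The start sites of the members were set beside all promoters of the RefSeq table to look for the pyrimidine tract. Most members did not hold it directly at the annotated start, and most had no run of 8 or more C or T around it. Shorter runs around the start were not counted. The table held a start for 43 members, and for genes with several the most upstream was used. Directly at the start, a C followed by 4 or more C or T stood in 8 of 43 members (18.6%) and in 2.48% of 27025 genes. Within 15 bases on each side of the start, a run of 8 or more C or T on the sense strand stood in 18 members (41.9%) and in 11.8% of all genes. The letters CTTTC, which can lie inside such a run, stood there in 11 members (25.6%) and in 3.99% of all genes on the sense strand. On either strand they stood in 12 members (27.9%) and in 7.37% of all genes. A RefSeq start can differ from the start used in these cells, so a missing match says only that the letters are not in this window.

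The 30 bases around the start are printed for the 5 lowest and 5 highest members with an entry, 5' to 3' on the gene's strand in GRCm38.p6, with the longest run of C and T in capitals. The annotated transcript begins with the last 15 letters, and genes are listed from the lowest difference to the highest. The windows lie at chr9:66946071-66946100 (plus) for Rps27l, chrX:37085208-37085237 (minus) for Rpl39, chr9:120571502-120571531 (plus) for Rpl14, chr3:28805493-28805522 (plus) for Rpl22l1 and chr10:128626492-128626521 (minus) for Rps26. Those of the higher genes lie at chr7:3704026-3704055 (plus) for Rps9, chr17:27635230-27635259 (minus) for Rps10, chr17:24727811-24727840 (plus) for Rpl3l, chr9:44407699-44407728 (plus) for Rps25 and chr7:109519180-109519209 (plus) for Rpl27a.
Rps27l: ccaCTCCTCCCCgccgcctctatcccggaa
Rpl39: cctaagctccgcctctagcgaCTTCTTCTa
Rpl14: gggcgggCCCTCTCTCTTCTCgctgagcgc
Rpl22l1: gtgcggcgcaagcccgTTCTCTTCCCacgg
Rps26: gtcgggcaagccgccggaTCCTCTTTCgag
Rps9: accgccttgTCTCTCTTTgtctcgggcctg
Rps10: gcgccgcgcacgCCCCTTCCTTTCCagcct
Rpl3l: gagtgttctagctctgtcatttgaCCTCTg
Rps25: TTTTTCCgacatcttagcgaggctgctgtg
Rpl27a: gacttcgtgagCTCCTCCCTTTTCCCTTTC
Long runs stood at both ends of the order, 19 bases in the highest member, Rpl27a, and 14 in Rpl14. The 18 members with a run of 8 or more had a median difference of -0.04 (6 higher) and the 25 with a shorter run -0.02 (10 higher). The letters CTTTC divided them the other way, with a median of -0.03 (5 higher) for the 11 members that hold them and -0.04 (11 higher) for the 32 that do not. Neither difference was tested.

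Among structural proteins of the large subunit, the stalk that recruits elongation factors was represented by Rplp0 and Rplp2. Rplp0, the base of the stalk, had intensities of 13618 (wild type) and 14371 (knockout), a difference of 0.078. Rplp2, a tip protein, had 12471 and 12649, a difference of 0.020. Rpl11, which with 5S ribosomal RNA can bind the p53 regulator Mdm2, had 10508 and 11000.4 (0.066). All 3 were slightly higher on the knockout array, by less than 0.085, the pooled SD between probe sets of a member.

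Around the peptidyl transferase region and the exit tunnel, Rpl4 lines the tunnel and had intensities of 13490 on the wild-type and 13695 on the knockout array (0.022). Rpl8, a protein near the catalytic centre, had 11414 and 11386 (-0.0035). Rpl39, another tunnel protein, gave 68.2 and 58.4 on its 1 probe set (-0.18). With poly-A scaling its difference was 0.0096.

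Other large subunit genes lower on the knockout array were Rpl14 (297 on the wild-type and 261 on the knockout array, a difference of -0.18), Rpl22 (11600.1 and 10593, -0.13), Rpl27 (8674 and 8051, -0.11), Rpl12 (152 and 140.2, -0.11) and Rpl41 (15287 and 14203, -0.11, with 1 of its 4 probe sets at 0.072). Rpl22, an RNA-binding protein needed for T cell development, had 2 further probe sets at 0.030 and 0.025. The 3 probe sets of Rpl27 lay from -0.13 to -0.10. On the higher side stood Rpl27a (204 and 236, 0.19, but -0.07 on a probe set below the expression level), Rpl37 (1074 and 1128, 0.070) and Rpl7 (11017 and 11454, 0.056). The remaining canonical genes of this subunit, Rpl6, Rpl7a, Rpl10a, Rpl13a, Rpl19, Rpl35, Rpl37a and Rpl38, differed by between -0.059 and 0.031.

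In the small subunit, proteins at the decoding region and the messenger RNA channel had 5 members, with differences from -0.14 to 0.070, and all 5 were positive with either control scaling. Rps26, which touches messenger RNA at the exit of the channel, had intensities of 11994 (wild type) and 10893 (knockout), a difference of -0.14. Rps28 had 16989 and 15801 (-0.10), and its other probe sets gave -0.05 and -0.03. Rps3, at the entry of the channel, had 12169 in the wild type and 11903 in the knockout (-0.03), and 0.0038 on its other expressed probe set. Rps2 was level, at 15060 and 15045 (-0.0014), and Rps15 was higher, at 8797 and 9233 (0.070). The poly-A scaling gave 0.050 for Rps26, 0.084 for Rps28 and 0.16 for Rps3.

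Rps6, the protein phosphorylated by S6 kinase downstream of mTOR, gave 902 in the wild type and 825 in the knockout (-0.13), and its other probe set, below the expression level, gave 0.20. Rps25, involved in translation from internal entry sites, gave 710.0 and 771 (0.12). Rps10 had 13100 and 14005 on its brightest probe set (0.096), and Rps4x, encoded on the X chromosome, had 12433 and 12872 (0.050). Rpsa, also known as the laminin receptor, was lower, at 16455 and 15621 (-0.075). Rps29 had 18287 and 17078 on its brightest probe set (-0.099), while its other probe sets gave 0.013 and 0.0064. The other small subunit genes, Rps3a1, Rps7, Rps14, Rps16, Rps18, Rps19, Rps20, Rps24 and Rps27, differed by between -0.067 and 0.052.

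Genes mutated in Diamond-Blackfan anaemia, a failure of red cell production, had 11 members. On the knockout array 3 of these were higher and 8 lower, with a median difference of -0.06 and a range from -0.14 (Rps26) to 0.096 (Rps10). Of all 49 members 18 were higher and 31 lower, and of all measured genes 48.2% and 51.2%. With either control scaling all 11 were positive. Rps19, the gene most often mutated, had intensities of 11789 and 11254 (-0.067). The list shares genes with the groups above, and with poly-A scaling Rps19 stood at 0.12.

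The paralog-like members included the lowest differences on the scale as deposited, Rps4l and Rps27l. Other members exceeded Rps27l in size in some settings, such as Rpl39 at -0.22 with a pseudocount of 1. Rps4l, annotated as a transcribed pseudogene, had 100.3 in the wild type and 72.0 in the knockout, a difference of -0.40 on its only probe set. It was -0.27 with a pseudocount of 64 and -0.47 with a pseudocount of 1, and -0.21 with poly-A scaling. Rps27l, a paralog of Rps27 that p53 can induce, had 5405 and 4707 (-0.20). Its other probe sets gave -0.29 and -0.18, so all 3 were lower, and the difference was -0.01 with poly-A scaling. Among the 12 other settings of scale, probe set and filter, Rps4l had no value with the filter at the 75th percentile and Rps27l none without probe sets of shared suffix classes. In the rest of these settings both stayed lower, which held for no other member. Either control scaling shifts every probe set alike, so only members with the lowest deposited differences could stay lower. The pseudocounts and filters cannot change the sign of a probe set's difference. For Rps4l, with its only probe set, the choices of probe set cannot either.

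Rpl22l1, the paralog of Rpl22, had 4807 in the wild type and 4268 in the knockout (-0.17), and 0.017 with poly-A scaling. Rpl7l1, a nucleolar relative of Rpl7, had 1303 and 1186 (-0.13), with its other probe sets at -0.06 and 0.05. Rpl39l, known from testis, and Rpl3l, known from muscle, were not expressed on either array, at 20.1 and 21.1 and at 13.4 and 15.5. Against their canonical partners, Rps27l stood at -0.20 beside Rps27 at 0.044, Rps4l at -0.40 beside Rps4x at 0.050, Rpl7l1 at -0.13 beside Rpl7 at 0.056, and Rpl22l1 at -0.17 beside Rpl22 at -0.13. The pair of Rpl39l at 0.039 and Rpl39 at -0.18 went the other way, with Rpl39l below the expression level. The probe sets of each pair differ in brightness, and the differences within pairs were not tested.

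**Figure D3:**
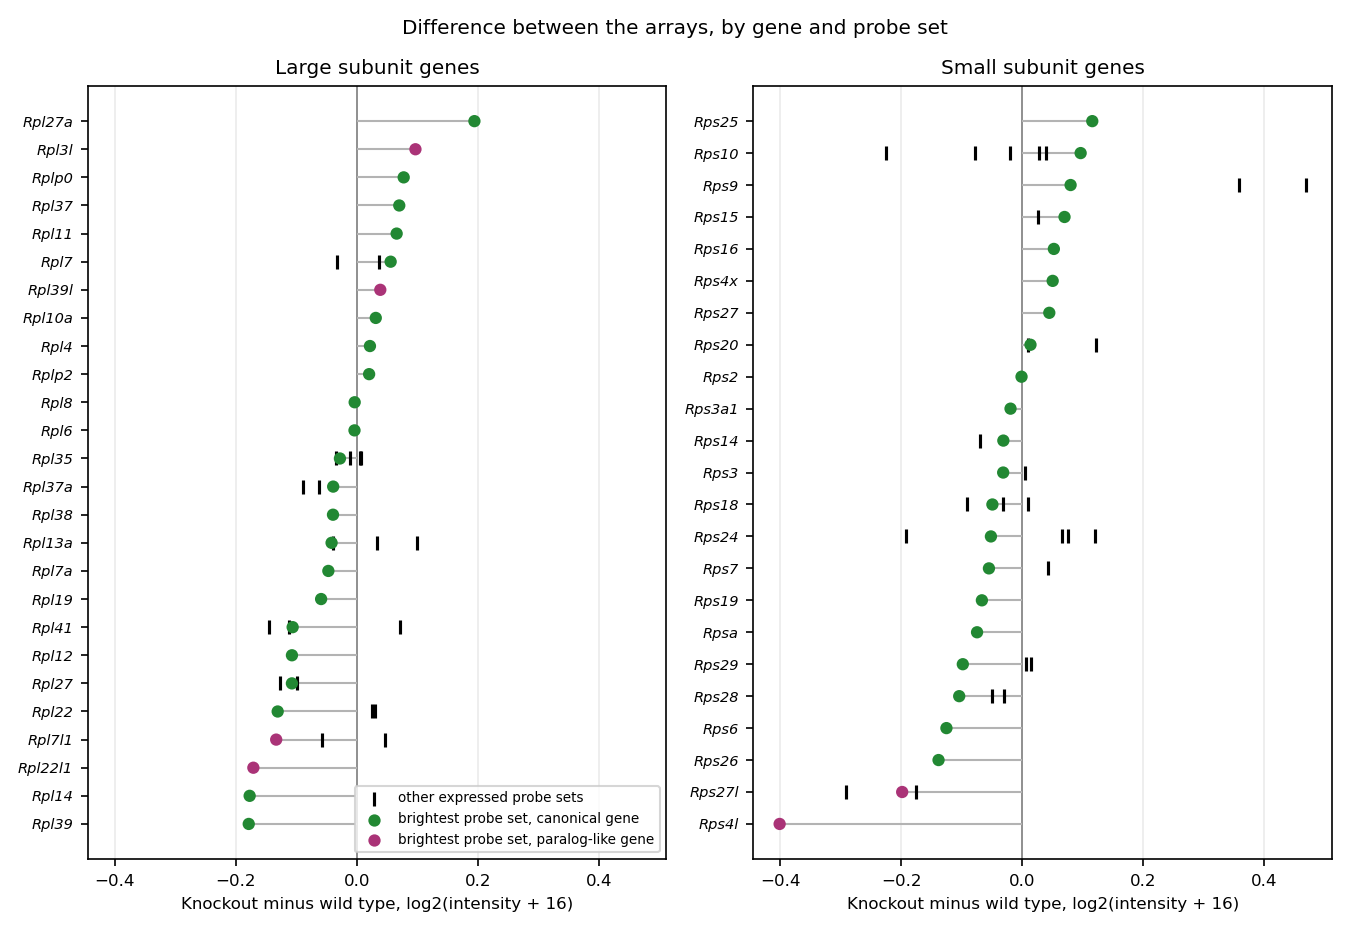
Difference between the arrays (knockout minus wild type, log2(intensity + 16)) for the brightest probe set of each gene (points, green for canonical and purple for paralog-like) and for its other expressed probe sets (ticks), with 1 array per genotype. Rps4l at -0.40 and Rps27l at -0.20 are the lowest, and ticks of Rps9 reach 0.47 while those of Rps10 reach -0.23. Signs hold for the scale as deposited; 47 of 49 points would lie above 0 with poly-A scaling.

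Probe sets of the same gene show how far values spread inside these arrays, and this spread is no replicate error. The members had 105 probe sets, 92 of them expressed, and 20 genes had more than 1 expressed probe set. Of these 20, 12 had probe sets of both signs and 8 of 1 sign. The pooled SD between probe sets of a gene was 0.085 over these 20 members, beside 0.14 over 5017 genes. Of the 49 members, 34 differed by under 0.1.

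The widest ranges among the expressed probe sets of a member were those of Rps9, Rps10 and Rps24. Rps9 stood at 0.080 on its brightest probe set (11181 in the wild type and 11817 in the knockout). Its 2 other probe sets gave 0.47 (3106 and 4303) and 0.36 (252 and 327). The 6 probe sets of Rps10 ran from -0.23 to 0.096 and the 5 expressed ones of Rps24 from -0.19 to 0.12. In contrast, the 5 expressed probe sets of Rpl35 ran from -0.03 to 0.0077. No member had probe sets at 0.2 or more in both directions.

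Ribosomal protein genes have many processed pseudogenes, and 110 probe sets were named for a ribosomal protein symbol together with other genes. They entered no gene value. Their median was -0.03, with 39 higher and 71 lower, close to the members' own. They cannot be assigned to 1 gene, and 2 of them differed by 2-fold or more, at -1.23 and 1.35. The share over all single probe sets was not counted. By gene values, 0.0605% of all measured genes were 2-fold higher and 0.0275% lower.

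Other genes around the ribosome were set beside the members by list, on the scale as deposited, naming up to 3 genes of each with the largest differences. Mitochondrial ribosomal protein genes, which serve the separate ribosome of that organelle, were all 76 expressed, with 11 higher and 65 lower and a median of -0.11. The largest differences were those of Mrpl47 (-0.53), Mrpl35 (-0.35) and Mrpl22 (-0.32). Their counts turned to 63 higher and 13 lower with poly-A scaling and to 47 and 29 with hybridization control scaling, and their median relative to all expressed genes stayed at -0.11. Mrpl47 had 698 in the wild type and 479.97 in the knockout. The cytosolic genes thus lay nearer to the median of all expressed genes than the mitochondrial ones did, which was not tested.

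Factors that build ribosomes in the nucleolus also had more lower than higher members, 17 against 3 of 20, with a median of -0.13. The median was 0.058 with poly-A scaling and 0.012 with hybridization control scaling. Relative to all expressed genes it stayed at -0.13 under either. Gnl3, nucleostemin, had 1700 in the wild type and 1370 in the knockout (-0.31). Tsr1 (-0.23) and Nop58, a core protein of box C/D ribonucleoproteins (-0.23), followed.

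Other messenger RNAs of the TOP class, mostly translation factors, were divided 9 higher to 7 lower with a median of 0.0084 over 16 genes. Eef1b2, an exchange factor of elongation, stood at 0.20 (7188 and 8282), the noncoding host gene Gas5 at -0.19 and Eif3e at -0.11. Genes of TOP control by mTOR were divided 5 to 5, with a median of -0.03. Rps6kb2, an S6 kinase, stood at 0.31, Eif4ebp2 at 0.22 and Rheb at -0.16. With poly-A scaling all 16 and all 10 were higher. Fau, which encodes a small subunit protein fused to a ubiquitin-like protein, had 10261 and 9968 (-0.04).

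Genes of the p53 response to free ribosomal proteins were represented by 4 expressed genes. Mdm2, named because Rpl11 binds it and chosen after its values were seen, gave 581 on both arrays, while Cdkn1a, a cell cycle inhibitor induced by p53, had 501 in the wild type and 394 in the knockout (-0.34). Mdm4 stood at 0.12 and Ccng1 at -0.05.

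**Figure D4:**
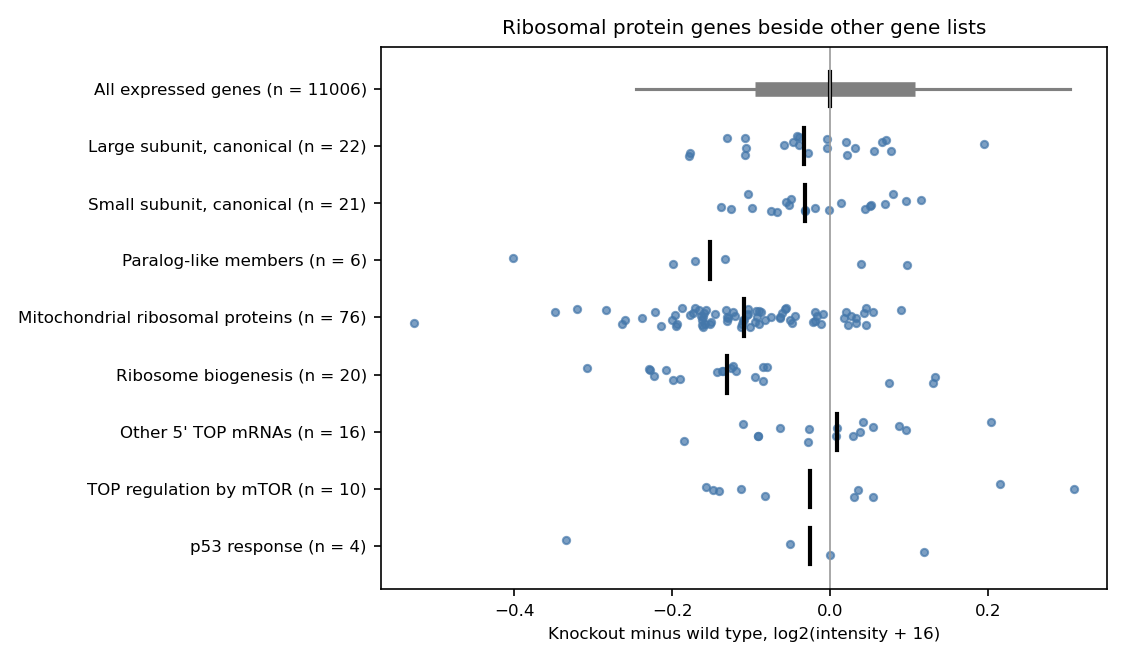
Differences (knockout minus wild type, log2(intensity + 16), 1 array per genotype) of the canonical genes of each subunit, the 6 paralog-like members and the expressed genes of the other lists, with 1 point per gene, spread vertically to be seen, and a black bar at the median. For all 11006 expressed genes a thick bar spans the middle quartiles and a thin line runs from the 5th to the 95th percentile. The canonical genes of both subunits have medians of -0.03, mitochondrial ribosomal proteins -0.11 and ribosome biogenesis genes -0.13. Each of these turned positive with scaling to the spike-in controls, which shifts all genes alike and leaves their order unchanged.

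The cultures showed the markers of their label and also those of other cells. Of 15 neutrophil markers 14 were measured and all were expressed, with a summed intensity of 177886 in the wild type and 188285 in the knockout, and 13 were higher. Markers of mast cells and basophils were lower in 9 of 9 expressed genes (median -0.53, summed intensity 6666 and 4644). Megakaryocyte and platelet markers were lower in 5 of 6 (1960.2 and 1258) and eosinophil markers in 3 of 4 expressed (1233 and 1006). Monocyte and macrophage markers were higher in 7 of 9 (5216 and 6009) and progenitor markers in 5 of 7 (6949 and 7734). Genes of dendritic cells and MHC class II were lower in 4 of 5 (1396 and 1204), B cell markers higher in 2 of 3 (874 and 1290), T and NK cell markers lower in 2 of 3 (1045 and 1333) and erythroid markers lower in 2 of 3 (251 and 241). The sums cover all measured markers of a list, and the counts its expressed ones. Nkg7, the 1 higher expressed T and NK cell marker, had 847 in the wild type and 1181 in the knockout. The 1 higher expressed marker was Itgb3 (1.34) in the megakaryocyte list and Siglecf (0.92) in the eosinophil list. Markers below the expression level were Ccr3, Il5ra, C1qa, Ciita, Itgax, Cd79a, Ms4a1, Cd3e, Cd3g, Il7r, Hba-a1 and Mecom. With poly-A scaling the medians of the dendritic, T and NK cell and erythroid lists turned positive, while those of the mast cell, eosinophil and megakaryocyte lists stayed negative. The 24 poly-A controls were all lower on the knockout array (median -0.17), as were 17 of 18 hybridization controls (median -0.11). The 3' minus 5' difference of the beta-actin controls, a sign of RNA quality, was 0.33 in the wild type and 0.25 in the knockout. In such mixed cultures, fewer cells of a type and less RNA per cell cannot be told apart, and the part of these markers and controls in the ribosomal protein values was not tested.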

How the data were processed

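For each of 2 Affymetrix arrays, 1 per genotype, the authors deposited a linear-scale intensity per probe set. Per the labels' protocols, Trizol RNA was made into biotinylated cRNA with a 3' IVT kit. How background was corrected, probes summarized and arrays normalized: not given in the sources used here. A normalization of both arrays together would hide a global difference. Of 45101 probe sets 64 were controls, 34945 were named for 1 gene and 932 for several. All 49 members matched RefSeq GRCm38.p6 by Entrez identifier. Start site and microRNA sequences are RefSeq's.

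Intensities were used as deposited, as log2(intensity + 16), and a gene was called at 2-fold. With 1 array per genotype no p-value or standard error was computed. Members and lists were chosen with earlier results of these data known. Every member could be named, with full values for the 10 highest, 10 lowest, role groups and paralogs, and up to 3 genes of each other list. Alternatives were pseudocounts of 1 and 64, median centring, quantile normalization, loess (span 0.3), scaling to poly-A or hybridization controls, other choices of probe set, and expression filters. The procedure was tested on simulated data. Python 3.11.15, pandas 2.3.3 and statsmodels 0.14.6 were used.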

Additional observations from a re-analysis of the deposited data

Results flagged for a closer look

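Among the 18S ribosomal RNA controls and the 110 probe sets named for a ribosomal protein symbol and other genes, 3 differed by 2-fold or more. By gene values, 0.0605% of all measured genes were 2-fold higher and 0.0275% lower. Other probe sets outside the gene values were not searched, so no share over all single probe sets stands beside these 3. The 5' control probe set of 18S ribosomal RNA, the RNA of the small subunit, had intensities of 493 (wild type) and 1149 (knockout), a difference of 1.19, while the middle probe set stood at 0.087 and the 3' one at 0.21. Whether these control probe sets follow the amount of 18S ribosomal RNA was not tested. A probe set named for a ribosomal protein gene and other genes had 1081 and 451, a difference of -1.23. Another such probe set had 605 and 1567, a difference of 1.35. These differences have no replicate check.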

How the results depend on the processing

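The median difference of the 49 genes, -0.03, moved to 0.16 with poly-A control scaling and to 0.11 with hybridization control scaling, the medians of small subunit genes to 0.16 and 0.11 and those of large subunit genes to 0.15 and 0.11. The 18 higher and 31 lower genes became 47 and 2 with poly-A control scaling, and 44 and 5 with hybridization control scaling; both shift every probe set alike. Without probe sets of shared suffix classes 26 genes were left, 14 higher and 12 lower, with several on dimmer probe sets. The larger number of higher genes there rested on genes below the expression level. Under the other settings (pseudocounts, median centring, quantile normalization, loess, choice of probe set, expression filters, and canonical members only, which was added after seeing the data) these values moved by less than the spread between probe sets, or by under 1.5 times for counts. No gene reached 2-fold under any of these settings. Leaving out the control scalings, 12 genes stayed higher and 19 stayed lower in those of the 10 other settings that included them. The pseudocounts and filters cannot change the sign of a probe set's difference. The choice of probe set cannot do so for the 25 genes with 1 probe set. Rpl39l, Rpl3l and Rps16, among those that stayed higher, lay below the expression level. No paired analysis was possible because each genotype had 1 array.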
